A study of Mus musculus with 8 samples.

Results

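The synaptonemal complex is the protein zipper that joins paired homologous chromosomes in meiotic prophase, and 9 genes of it and of the chromosome axis beneath it are described here in the mouse testis: Sycp1, Sycp2, Sycp3, Syce1, Syce2, Syce3, Tex12, Hormad1 and Hormad2. They were taken by name, as the rows of the count files that carry these symbols; the rule uses no measured value, but the set was proposed with earlier results of these data known. All 9 were found among 54087 gene entries, and all 9 passed the filter on low counts, which kept 23353 genes. The RNA came from whole testes of C57BL/6 males. Controls carried the genotype Dnmt3A WT/WT and mutants Dnmt3A KO/KO (called WT and KO from here on), each at 19 and at 25 days postpartum (dpp). Every one of the 4 groups had 2 libraries, which makes 8 in all. Dnmt3a encodes a DNA methyltransferase that places methyl groups on cytosines that had none. Which part of the gene is missing in the KO/KO mice, and whether it is missing in germ cells or in the whole animal, is not given in the sources used here. Nor do they say whether a library came from 1 animal, so the p-values measure the spread between these libraries, which may be technical in part.

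As background, meiotic chromosomes are folded into loops along a protein axis, and in mice that axis becomes the lateral element of the synaptonemal complex through SYCP2 and SYCP3. SYCP1 forms the transverse filaments that span the gap between both axes, and a central element built from SYCE1, SYCE2, SYCE3, TEX12 and SIX6OS1 holds the filaments together. HORMAD1 and HORMAD2 carry a HORMA domain, sit on axes that have not yet paired and leave them once the complex has formed. In males, loss of the transverse filament, of a central element protein or of SYCP3 stops spermatocytes in prophase and leaves the testis without sperm. The first wave of spermatogenesis is roughly in step between tubules of young mice, so a whole testis at 19 dpp holds spermatocytes up to pachytene, and at 25 dpp a normal one also holds round spermatids.

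Gene totals lay between 22515812 and 50445334 counts per library, and 3 counts, the most that a count of 0 leaves likely, were worth 0.0812 to 0.126 CPM. CPM here means counts per 1000000 of the library's gene total after TMM scaling (trimmed mean of M values). Dnmt3a itself had 147 and 141 CPM in the WT libraries and 114 and 112 CPM in the KO libraries of 19 dpp, and those of 25 dpp had 76.9 and 67.2 CPM in KO against 48.7 and 70.0 CPM in WT. Neither KO difference passed the test (adjusted p = 0.201 and 0.204), and since the deleted part is not known, these counts are no check of the genotype labels. Markers of somatic and germ cells were both present in all 4 groups, as a whole testis should give. In a bulk sample, fewer cells of a type and less RNA per cell cannot be told apart, which holds for every value below.

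On mm10 the gene models of GENCODE M21, all protein-coding, place Sycp1 at chr3:102818499-102936100 on the minus strand and Hormad1 at chr3:95559677-95587671 on the plus strand. Sycp2 lies at chr2:178345293-178407685 (minus), Sycp3 at chr10:88459569-88473236 (plus) and Hormad2 at chr11:4345814-4441105 (minus). Of the central element genes, Syce1 lies at chr7:140777229-140787852 (minus), Syce2 at chr8:84872111-84888221 (plus), Syce3 at chr15:89390174-89410503 (minus) and Tex12 at chr9:50556819-50561325 (minus). Promoters of 6 of them are shown here as examples with and without the E-box letters defined below. Each window below holds the 250 bases before the RefSeq start site (GRCm38.p6), read 5′ to 3′ on the gene's strand. Capitals mark the E-box letters CACGTG, bound by many basic helix-loop-helix factors, and the E2F letters GCGGGA or their reverse complement. Sycp1, Sycp3, Tex12 and Hormad1 are printed as genes that hold the E-box, and Syce1 and Syce3 (the second of its RefSeq windows) as the central element genes without it. Not printed are Sycp2 and Hormad2, which also lack it, and Syce2, which holds it in its second window. The genes without it include both the lowest and the highest KO change at 25 dpp, Syce1 at -2.37 and Hormad2 at 0.65 (log2).
Sycp1, chr3:102936101-102936350, - strand: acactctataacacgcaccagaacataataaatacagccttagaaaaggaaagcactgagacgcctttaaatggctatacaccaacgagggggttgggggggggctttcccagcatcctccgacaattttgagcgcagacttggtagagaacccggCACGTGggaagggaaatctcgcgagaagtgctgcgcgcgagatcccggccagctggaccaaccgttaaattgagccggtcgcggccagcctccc
Sycp3, chr10:88459337-88459586, + strand: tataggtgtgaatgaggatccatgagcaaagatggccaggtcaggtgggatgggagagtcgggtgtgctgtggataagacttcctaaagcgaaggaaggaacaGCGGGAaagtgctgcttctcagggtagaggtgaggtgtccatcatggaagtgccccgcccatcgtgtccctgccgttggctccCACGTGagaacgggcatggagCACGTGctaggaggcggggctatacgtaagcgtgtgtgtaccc
Tex12, chr9:50561269-50561518, - strand: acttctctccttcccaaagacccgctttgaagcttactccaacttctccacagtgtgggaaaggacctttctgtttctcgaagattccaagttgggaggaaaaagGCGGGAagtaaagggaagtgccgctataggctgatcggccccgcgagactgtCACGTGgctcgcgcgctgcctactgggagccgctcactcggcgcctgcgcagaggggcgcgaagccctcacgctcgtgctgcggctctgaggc
Hormad1, chr3:95559427-95559676, + strand: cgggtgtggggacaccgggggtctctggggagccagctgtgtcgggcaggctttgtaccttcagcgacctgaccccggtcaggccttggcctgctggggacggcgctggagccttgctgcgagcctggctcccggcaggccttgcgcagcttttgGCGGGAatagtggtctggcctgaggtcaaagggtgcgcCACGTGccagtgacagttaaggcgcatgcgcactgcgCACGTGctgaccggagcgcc
Syce1, chr7:140787855-140788104, - strand: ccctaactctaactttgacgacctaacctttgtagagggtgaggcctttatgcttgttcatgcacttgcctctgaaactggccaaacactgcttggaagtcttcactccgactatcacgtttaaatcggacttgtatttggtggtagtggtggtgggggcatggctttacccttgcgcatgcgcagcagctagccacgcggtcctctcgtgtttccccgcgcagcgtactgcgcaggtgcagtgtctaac
Syce3, chr15:89410264-89410513, - strand: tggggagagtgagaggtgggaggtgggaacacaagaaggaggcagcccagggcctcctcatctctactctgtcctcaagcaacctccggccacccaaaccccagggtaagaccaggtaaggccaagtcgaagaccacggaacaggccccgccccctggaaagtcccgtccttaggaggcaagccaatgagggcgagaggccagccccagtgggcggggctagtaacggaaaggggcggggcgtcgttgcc

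All 9 genes had a RefSeq promoter, in 12 windows of 300 bases that run from 250 before to 50 after the start. Windows of one gene overlap in Syce2, Syce3 and Hormad1, so the genes and not the windows are counted. The shares of all promoters count each window. The E-box CACGTG, whose letters are the same on both strands, was found in 5 of 9 genes (Sycp1, Sycp3, Syce2, Tex12 and Hormad1), and 7.15% of 32851 mouse promoters of that length hold it. Sycp3 and Hormad1 held it in duplicate. The same 5 genes held the E2F letters GCGGGA, searched on both strands, against 20.0% of all promoters. Both motifs contain CG, and base composition was not matched. Windows of these 5 genes held 15 to 33 CG dinucleotides, and those of the other genes 5 to 16. Over all promoters the median was 7 and the upper quartile 20. In Sycp1 the E2F letters lay after the start site, outside the stretch printed above. The core AACNG read by MYB factors was present in 9 of 9, but 80.3% of all promoters hold it. The letters CCTCAG, which form the core of a STRA8 motif, were found in 6 of 9 against 26.8%, and the cyclic AMP response core TGACG in Syce1, Syce2 and Syce3, 3 of 9, against 20.8%. None of these motifs holds another, though neighbouring matches may overlap in part. These matches describe letters only, they are no binding sites, and none of them was tested against expression. No match says only that these letters are not in the window.

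Levels of different genes can be compared per length, as CPM per kilobase of exon in GENCODE M21 (GRCm38, the assembly also called mm10). In WT at 19 dpp, Sycp3 was highest at 279.9 ± 29.9 CPM per kb (SD, n = 2, as for each mean ± SD here). Hormad1 followed at 142.9 ± 15.8 and Sycp1 at 99.0 ± 25.5, and the ranges of these 3 did not overlap. Sycp2 at 81.8 ± 23.2 overlapped both Sycp1 above it and Syce1 at 66.1 ± 14.5 below it. The other central element genes were lower, with Syce3 at 44.9 ± 6.72, Tex12 at 40.5 ± 5.31 and Syce2 at 36.9 ± 2.903, whose ranges overlapped one another in part. Hormad2 was lowest at 17.6 ± 0.551, well apart from the rest. The same length-scaled order began with Sycp3, Hormad1 and Sycp1 in KO at 19 dpp (63.5 ± 31.2, 27.8 ± 14.4 and 22.9 ± 9.21) and in KO at 25 dpp (322 ± 57.0, 159.9 ± 36.5 and 126 ± 29.6). WT at 25 dpp stood apart in this order, since Syce1 moved to the top at 315 ± 60.2 CPM per kb, above Sycp3 at 237 ± 28.9.

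**Figure D1:**
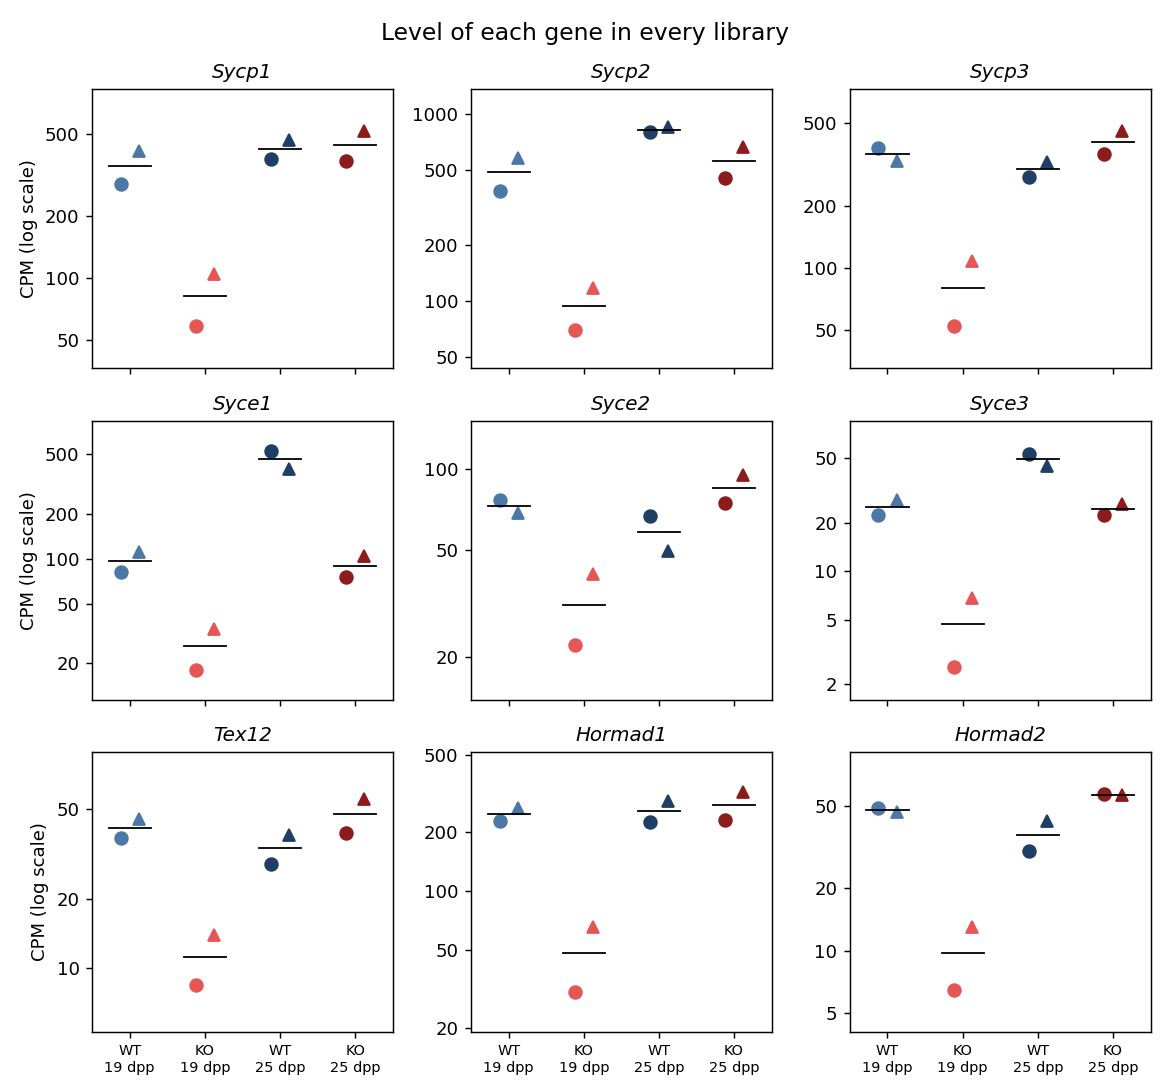
Level of each gene in CPM on a log scale (vertical axis) in the 4 groups; circles are replicate 1, triangles replicate 2 and lines the group mean. The KO libraries at 19 dpp are the lowest pair in all 9 panels, and Sycp2, Syce1 and Syce3 have both WT libraries at 25 dpp above every other library.

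KO against WT at 19 dpp asks how these genes stood in the mutant at the younger age, when a WT testis holds spermatocytes up to pachytene. All 9 fell, from 2.32-fold for Syce2 to 5.21-fold for Sycp2, and no KO library reached the lowest WT library in any of them. Among all genes tested, 22.0% were called in either direction in this comparison, 13.2% lower and 8.80% higher, while 33.8% had both KO libraries below both WT libraries. The median log2 change of the 9 was -2.14, against 0 over all genes tested. Calls are from edgeR's quasi-likelihood test with Benjamini-Hochberg adjustment over all genes, at an adjusted p under 0.05.

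Sycp1, the transverse filament, had 288 and 416 CPM in WT against 58.2 and 104 CPM in KO, a log2 change of -2.11 (SE 0.335). Of the lateral element pair, Sycp2 had 390.0 and 586 CPM in WT against 69.8 and 117 CPM in KO. Its log2 change of -2.38 (SE 0.325) was the lowest of the 9 beside that of Syce3. Sycp3, which encodes the coiled-coil protein that stiffens the axis, had 380 and 327 CPM in the WT libraries and 52.5 and 108 CPM in the KO libraries, a log2 change of -2.14 (SE 0.335). Sycp3 shares 660 exon bases with Chpt1 on the opposite strand. Chpt1 had 1363 to 2415 counts per library in all 8, and since the strand setting of the counting is not stated, some of the Sycp3 counts could belong to it.

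Among the central element genes, Syce1 had 18.2 and 33.9 CPM in KO against 81.5 and 112 CPM in WT, a log2 change of -1.89 (SE 0.338). Syce2, whose product assembles with TEX12 into fibres, was the least changed of the 9. It had 76.6 and 68.5 CPM in WT against 22.1 and 40.4 CPM in KO, a log2 change of -1.21 (SE 0.298). Syce3, needed to bring the other central element proteins in, had 2.56 and 6.87 CPM in KO against 22.2 and 27.5 CPM in WT. Its log2 change was -2.38 (SE 0.415). Tex12 had 37.3 and 44.9 CPM in the WT libraries and 8.43 and 14.03 CPM in the KO libraries, a log2 change of -1.87 (SE 0.299). Of the HORMA genes, Hormad1, which promotes break formation and pairing, had 30.5 and 65.7 CPM in KO against 228 and 266 CPM in WT, a log2 change of -2.36 (SE 0.373). Hormad2, which helps to recruit the ATR kinase to unpaired axes, had 49.2 and 47.1 CPM in WT against 6.46 and 13.1 CPM in KO, a log2 change of -2.30 (SE 0.327). In every one of the 9 genes the first KO library was lower than the second.

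Adjusted p-values for the 9 ran from 0.00792 for Sycp2 and Hormad2 to 0.0283 for Syce2. Without the first KO library at 19 dpp, edgeR no longer called any of the 9, with log2 changes of -2.05 to -0.84. A DESeq2 fit without that library was an alternative chosen after seeing the data, and the direction of all 9 held in it. In both fits only 1 KO library at 19 dpp is then left, so its spread is taken from the remaining groups. The call of Syce2 also depends on each WT library, with an adjusted p of 0.0678 without the first and 0.0651 without the second.

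Markers of other cell types moved at the same age, and their part in the fall was not tested. The background for their counts is the 13.2% of all genes called lower and the 8.80% called higher. All 10 of 10 markers of pachytene and later spermatocytes fell, with summed levels of 1210 and 2960 CPM in the WT libraries and 118 and 182 CPM in the KO libraries. Of 15 Sertoli markers 12 rose, with sums of 9099 and 8045 CPM in KO against 5108 and 4137 CPM in WT. Sums of the 10 undifferentiated spermatogonia markers overlapped, at 343 and 286 CPM in WT against 314 and 370 CPM in KO. Of 8 markers of differentiating spermatogonia and meiotic entry 3 fell, with a median log2 change of -0.89. The first KO library stood apart in red blood cell markers, which summed to 369 CPM there, 56.5 CPM in the second KO library and 56.3 and 128 CPM in WT. None of the 5 red blood cell markers was called. Without that first KO library the marker calls were lost as well, since edgeR then called 0 genes of any kind. With the Sertoli markers as the scale in place of TMM, the median of all genes shifted by -0.86, and the 9 members had a median log2 change of -3.02. A change of scale moves all genes by nearly the same amount, so the members' distance from the all-gene median is no separate support.

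KO against WT at 25 dpp asks the same once WT testes hold later cells. Only Syce1 was called. It fell 5.15-fold, from 523 and 399 CPM in WT to 75.6 and 103 CPM in KO, a log2 change of -2.37 (SE 0.341, adjusted p = 0.00129). Over all genes tested 63.5% were called in this comparison, 37.4% lower and 26.1% higher, so 1 of 9 is a smaller share than the background. The median log2 change of the 9 was 0.10, against -0.12 over all genes.

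Syce3 had 53.4 and 44.8 CPM in the WT libraries and 22.3 and 25.9 CPM in the KO libraries, which did not overlap (an order that 46.1% of all genes had), but its log2 change of -1.03 (SE 0.390) missed the threshold at an adjusted p of 0.0516. Sycp2 had 456 and 669 CPM in KO against 801 and 854 CPM in WT. The KO libraries were again the lower pair, with a 95% interval of the log2 change from -1.29 to 0.17. Sycp1 overlapped between groups, at 381 and 467 CPM in WT against 372 and 521 CPM in KO. Its interval ran from -0.69 to 0.84. Hormad1 overlapped too, at 225 and 289 CPM in the WT libraries and 232 and 321 CPM in the KO libraries, with an interval from -0.74 to 0.95. For both genes these intervals hold 0 and changes in either direction.

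In the other 4 genes both KO libraries at 25 dpp lay above both WT libraries without passing the test. Among all genes tested, 38.5% had that order. Sycp3 had 357 and 459 CPM in KO against 274 and 326 CPM in WT, and its log2 change of 0.44 had an interval from -0.32 to 1.20. Syce2 had 66.9 and 49.6 CPM in WT against 74.5 and 94.4 CPM in KO, a log2 change of 0.53 with an interval from -0.15 to 1.22. Tex12, the partner of SYCE2, had 28.7 and 38.4 CPM in the WT libraries and 39.2 and 55.1 CPM in the KO libraries, a log2 change of 0.49 with an interval from -0.18 to 1.16. Hormad2 had 57.1 and 56.8 CPM in KO against 30.4 and 42.4 CPM in WT, a log2 change of 0.65 with an interval from -0.08 to 1.37. Their adjusted p-values were between 0.104 and 0.263.

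**Figure D2:**
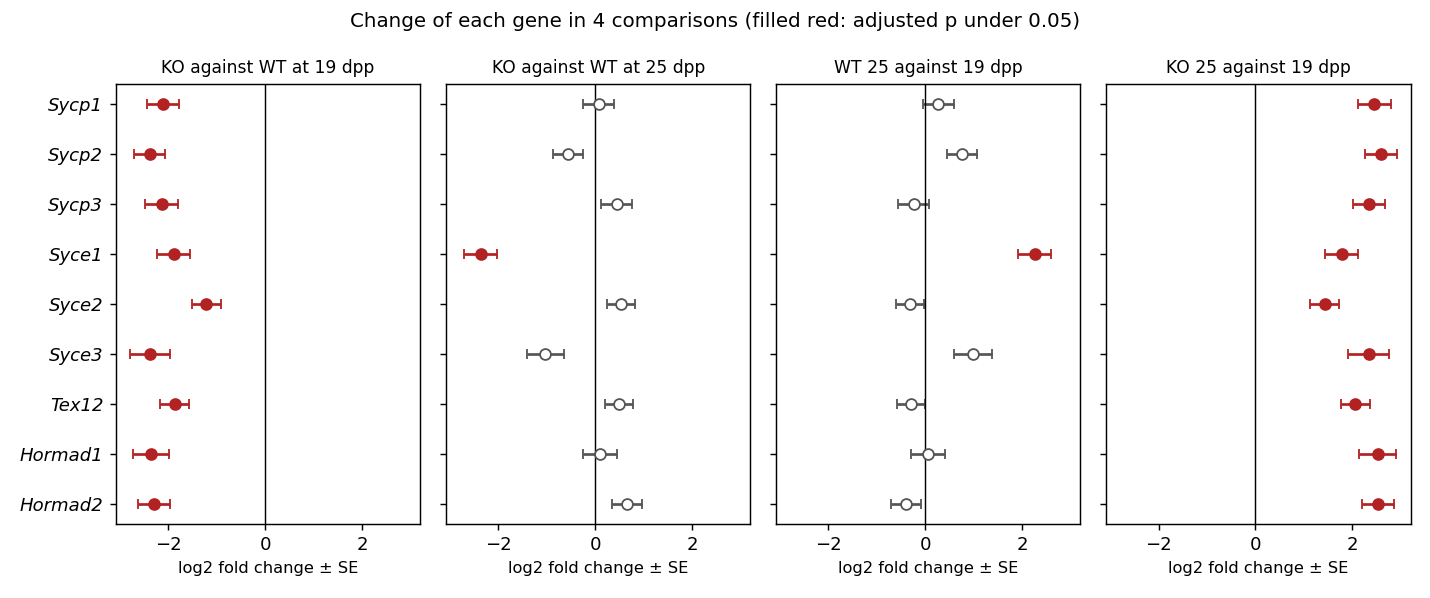
log2 fold change ± SE of each gene (horizontal axis) in 4 comparisons, filled red where the adjusted p is under 0.05. All 9 points are filled at 19 dpp and in KO between the ages, and only Syce1 is filled in KO against WT at 25 dpp (-2.37) and in WT between the ages (2.25).

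The direction at 25 dpp depends on what the libraries are scaled to for all members but Sycp2, Syce1 and Syce3. With Sertoli markers as the scale, the all-gene median shifted by -1.59, and all 9 members were called lower, as were 73.2% of all genes. Syce1 was then at -3.97, Syce3 at -2.64 and Sycp2 at -2.13, while Hormad2 was the least changed at -0.92. Scaled to total counts, the median of all genes shifted by 0.46, and Sycp3, Syce2, Tex12 and Hormad2 were called higher, at 0.90, 1.01, 0.94 and 1.10, as were 38.5% of all genes. Syce1 was called lower under each of the 4 scalings. With DESeq2 size factors the median of all genes shifted by -0.11, and Syce3 was called lower as well, as were 39.5% of all genes.

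**Figure D3:**
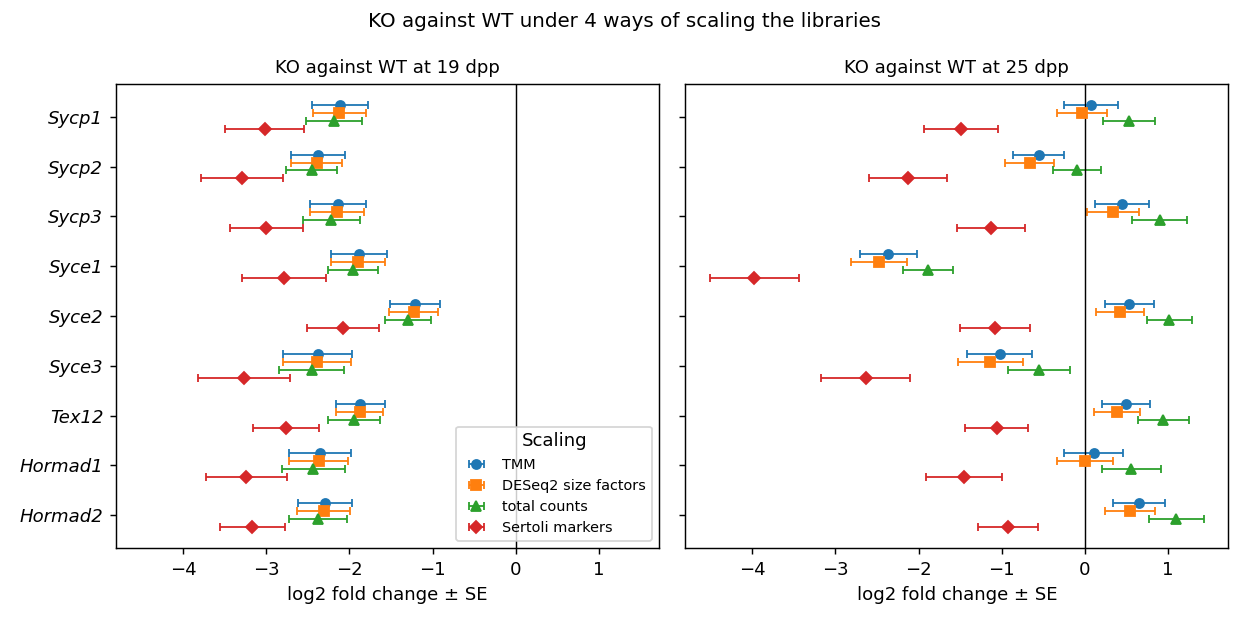
log2 fold change ± SE of KO against WT (horizontal axis) for each gene at both ages, under 4 ways of scaling the libraries. At 19 dpp all 9 genes are below 0 under each scaling; at 25 dpp Syce1 stays the lowest under each, while 6 genes sit near or above 0 under TMM and below 0 under Sertoli marker scaling.

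Markers of several cell types also differed between the genotypes at 25 dpp, and their part in the values of Syce1 and the others was not tested. The marker counts below are under TMM, where 26.1% of all genes were called higher and 37.4% lower. With Sertoli markers as the scale, the all-gene median shifted by -1.59. All 10 of 10 round spermatid markers fell, with sums of 1817 and 894 CPM in WT against 20.8 and 35.8 CPM in KO. In the KO libraries at 25 dpp, Lyzl4 was at 0 in both and Acrv1, an acrosomal protein gene, at 0 in the first. All 10 of 10 pachytene and later markers fell, from 13990.3 and 11028 CPM to 888 and 1643 CPM. Of 15 Sertoli markers 14 rose, from 2031 and 2643 CPM to 7553 and 6464 CPM. Undifferentiated spermatogonia markers summed to 175 and 207 CPM in the WT libraries and 310.0 and 298 CPM in the KO libraries. Of these 10 markers 7 rose and 1 fell (Id4, -0.64), with a median log2 change of 1.04. Of the 8 markers of differentiating spermatogonia and meiotic entry 6 rose and 1 fell, with a median log2 change of 1.03. Their summed level was lower in KO, at 602 and 676 CPM against 1389 and 1168 CPM in WT. Most of the WT sum came from Dmrtb1, the 1 that fell, at 926 and 637 CPM in WT against 39.9 and 37.6 CPM in KO. Of 6 Leydig markers 4 fell, with sums of 266 and 406 CPM in WT against 29.2 and 58.3 CPM in KO.

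Between 19 and 25 dpp in WT, 1 of the 9 genes changed. Syce1 rose 4.77-fold, a log2 change of 2.25 (SE 0.340, adjusted p = 0.00206), and both libraries at 25 dpp were above both at 19 dpp. Over all genes tested 60.3% were called between these ages and 34.9% were called higher and 25.4% lower. Syce3 and Sycp2 had log2 changes of 0.98 and 0.76 that missed the threshold (adjusted p = 0.0617 and 0.0684). Both also had no overlap between ages, as in 43.4% of all genes in the upward order. The remaining 6 lay between -0.41 for Hormad2 and 0.27 for Sycp1, with adjusted p of 0.287 to 0.897. Among them, Sycp3, Syce2 and Hormad2 had both libraries at 25 dpp below both at 19 dpp, as in 40.3% of all genes. Sums of round spermatid markers rose in the same libraries from 20.9 and 58.4 CPM to 1817 and 894 CPM, and those of pachytene and later markers from 1210 and 2960 CPM to 13990.3 and 11028 CPM, and whether Syce1 follows either was not tested. With Sertoli markers as the scale, the all-gene median shifted by 0.99, and Syce1, Syce3 and Sycp2 were called higher, as were 51.2% of all genes.

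Between 19 and 25 dpp in KO, all 9 genes rose, from 2.698-fold for Syce2 to 6.01-fold for Sycp2, with no overlap between the ages. Over all genes tested 19.1% were called, 10.2% higher and 8.87% lower, and 33.3% had both libraries at 25 dpp above both at 19 dpp. The members' median log2 change was 2.34, against 0 over all genes. This comparison shares its KO libraries at 19 dpp with KO against WT at that age, so the same low libraries enter both. By role, the log2 rise was 2.46 (SE 0.340) for Sycp1, 2.59 (SE 0.327) for Sycp2 and 2.34 (SE 0.338) for Sycp3. It was 1.78 (SE 0.337) for Syce1, 1.43 (SE 0.299) for Syce2, 2.34 (SE 0.415) for Syce3 and 2.06 (SE 0.301) for Tex12. Hormad1 rose by 2.52 (SE 0.375) and Hormad2 by 2.54 (SE 0.329). Adjusted p-values lay between 0.00764 and 0.0199. At 25 dpp the KO libraries overlapped the range of WT at 19 dpp in each of the 9 genes but Hormad2, where both lay above it. These 2 groups were not compared by a test, and the share of all genes that overlap between them was not counted. The overlap therefore does not show that the levels are equal. Without the first KO library at 19 dpp 0 of the 9 were called, at log2 changes of 1.06 to 2.26, and without the second KO library at 25 dpp 2 were called, Sycp2 and Hormad2.

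The KO effect itself differed between the ages for 7 of the 9 genes by a test of the difference. Of all genes tested 19.1% were called, 7.68% higher (0.3% with Sertoli markers as the scale) and 11.4% lower (9.8%) at 25 dpp. The log2 difference was largest for Hormad2, at 2.94 (adjusted p = 0.00860), followed by Sycp3 at 2.58 (adjusted p = 0.0143) and Hormad1 at 2.46 (adjusted p = 0.0222). Tex12 differed by 2.36, Sycp1 by 2.19, Sycp2 by 1.83 and Syce2 by 1.75. For Syce3 the difference was 1.35 (adjusted p = 0.130), and for Syce1 it was -0.48 (adjusted p = 0.517, 95% interval -1.57 to 0.62), which passed no threshold. Leaving out 1 library at a time, the number called was 2 to 8. It was 2 without the second KO library at 25 dpp, 3 without the first KO or the first WT library at 25 dpp and 4 without the first KO library at 19 dpp, and 1 was called when the libraries were scaled to Sertoli markers.

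**Figure D4:**
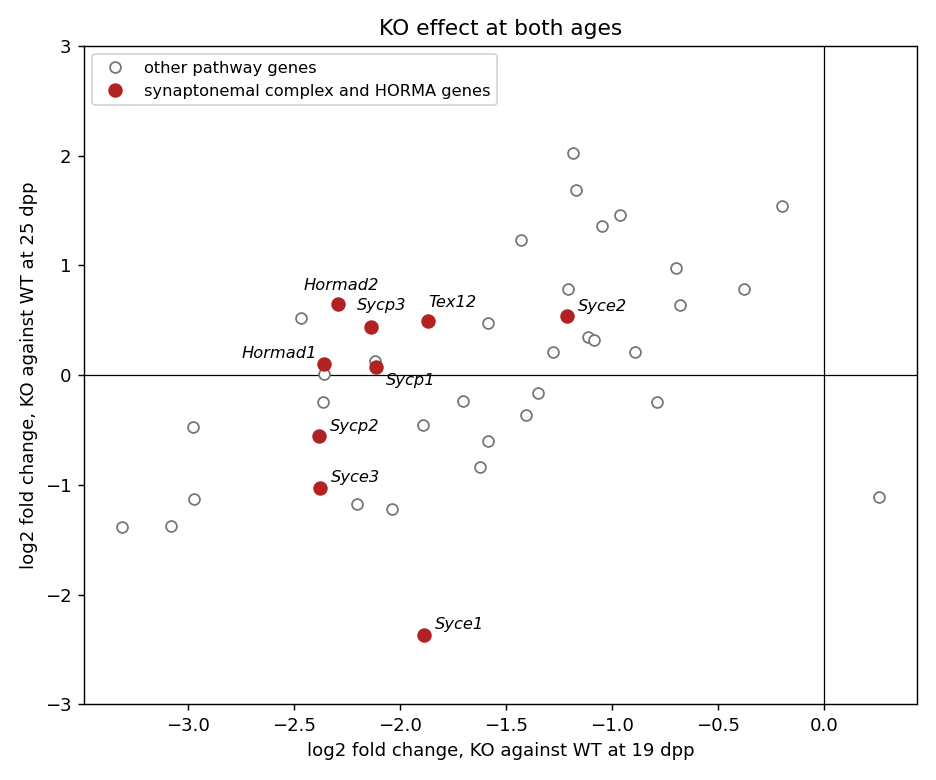
log2 fold change of KO against WT at 19 dpp (horizontal axis) and at 25 dpp (vertical axis) for the 9 genes (filled, named) and for 33 other genes of the pathway (open circles). The 9 lie between -2.38 and -1.21 on the horizontal axis, and Syce1 is the lowest of all points on the vertical axis at -2.37.

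Ratios between the 9 genes within a library do not depend on scaling. As a share of the summed length-scaled counts of the 9, Syce1 took 7.27% and 8.98% in WT against 9.86% and 9.39% in KO at 19 dpp. At 25 dpp it took 32.1% and 24.1% in WT but 6.58% and 6.75% in KO. Sycp3 made up 39.2% and 30.4%, then 32.9% and 34.6%, in WT and KO at 19 dpp, and 19.4% and 22.8%, then 35.9% and 34.6%, at 25 dpp. The count of Syce1 relative to that of Sycp3 was 1.91 and 1.22 in WT at 25 dpp, and between 0.212 and 0.346 in the other 6 libraries. Syce3 took 8.65% and 7.16% in WT at 25 dpp and 3.67% to 5.84% elsewhere. Syce2 was at its highest share in KO at 19 dpp, 8.89% and 8.31%, against 5.06% and 4.09% in WT. Unlike these ratios, the summed counts of all 9 depend on scaling. Per 1000000 of the library's gene total without TMM, KO libraries of 19 dpp had 285 and 535, against 1781 and 2073 for WT. For 25 dpp the KO sums of 1840 and 2458 overlapped the WT sums of 1732 and 2093. TMM factors of that age were 0.728 and 0.834 for WT libraries but 1.09 and 1.07 for KO libraries. After TMM scaling, both KO sums of 25 dpp lay below both WT sums.

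**Figure D5:**
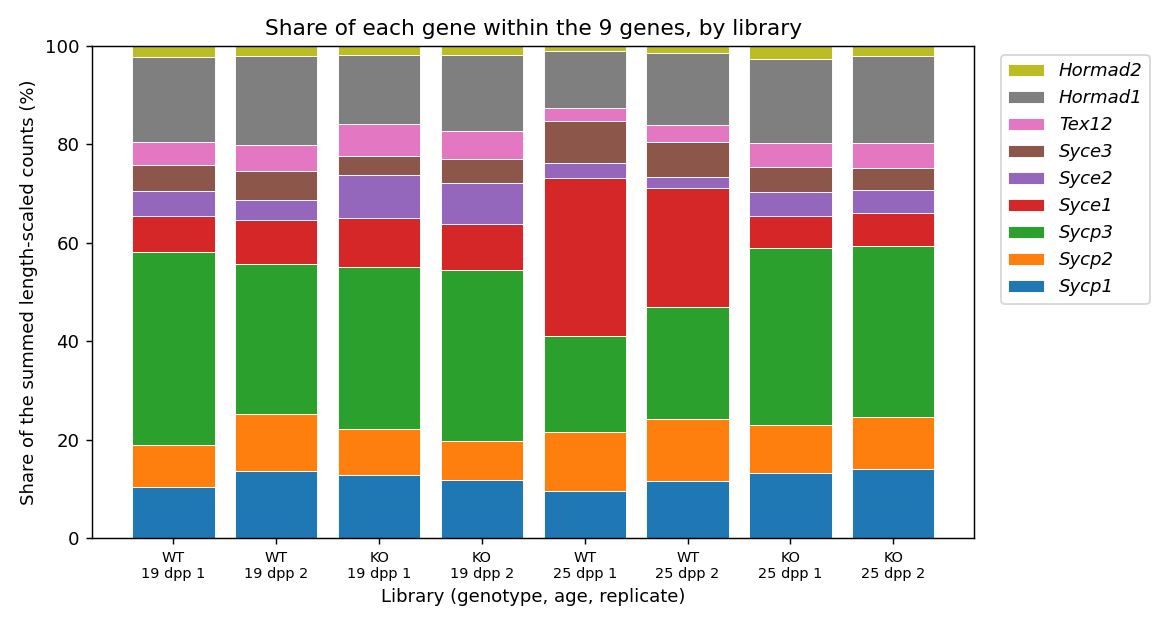
Share of each of the 9 genes in their summed length-scaled counts (vertical axis, percent), by library. Syce1 takes 32.1% and 24.1% in WT at 25 dpp and 6.58% to 9.86% in the other libraries, while Sycp3 takes its smallest shares, 19.4% and 22.8%, in WT at 25 dpp.

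Over the 8 libraries, the 36 pairs of members had correlations of log2 CPM between 0.53 and 0.99, with a median of 0.93. These are descriptions, since the 4 groups and the scaling are shared by every pair. Sycp1 and Hormad1 were the most alike pair at 0.99, and Syce1 and Syce2 the least alike at 0.53. Of 11396 other genes with a mean of at least 10 CPM, the 5 closest to the mean profile of the 9 were Ly6k (r = 0.997), Stk17b (0.996), Poln (0.996), Dtl (0.995) and Meioc (0.995). Ly6k, a membrane-anchored protein of germ cells, had 9.35 and 24.5 CPM in KO against 110.2 and 120 CPM in WT at 19 dpp, and 127 and 144 CPM in WT against 115 and 139 CPM in KO at 25 dpp. Meioc, which keeps germ cells in the meiotic programme, had 245 and 274 CPM in the WT libraries and 35.0 and 68.6 CPM in the KO libraries at 19 dpp, and 216 and 282 CPM in KO against 337 and 366 CPM in WT at 25 dpp. Both were lowest in the KO libraries at 19 dpp, as the members were, which follows from picking them by likeness over these same libraries.

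Other genes of the pathway were taken from 6 lists of 39 genes, of which 33 had an entry in the files and were tested. At 19 dpp 26 of 33 fell and 0 rose, with a median log2 change of -1.41. At 25 dpp 8 fell, 10 rose and 15 were not called, with a median of 0.13. In KO between the ages 27 rose and 0 fell, and in WT 7 rose and 9 fell. The WT split turned with the scaling, to 0 higher and 13 lower with total counts (27.0% and 41.6% of all genes) and to 14 higher and 0 lower with Sertoli markers (51.2% and 1.1% of all genes). The background shares of these comparisons are those given above, and without the first KO library at 19 dpp, edgeR called 0 of the 33 in KO against WT at 19 dpp and 0 in KO between the ages, as it did for the 9. The split at 25 dpp moved with the scaling, to 15 higher and 1 lower with total counts (38.5% and 30.4% of all genes) and to 0 higher and 24 lower with Sertoli markers (0.7% and 73.2% of all genes).

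Of 7 partners of the transverse filament and central element, 5 fell at 19 dpp, and at 25 dpp 3 rose and 1 fell. Six6os1, the fifth central element gene, had 128 and 105 CPM in WT against 101 and 102 CPM in KO at 19 dpp, which was not called (adjusted p = 0.379). At 25 dpp Six6os1 rose, from 57.9 and 70.3 CPM in WT to 180.0 and 193 CPM in KO, a log2 change of 1.54 (SE 0.152) that was -0.04 with Sertoli markers as the scale. Fkbp6, a co-chaperone needed in male meiosis, was not called at 19 dpp (-0.38) and rose by 0.78 at 25 dpp, but fell with Sertoli markers as the scale (-0.80). Psma8, which encodes a proteasome subunit of spermatocytes, fell at both ages, with log2 changes of -3.31 and -1.39.

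Of 4 axis cohesin genes 3 fell at 19 dpp, and at 25 dpp 2 fell and 1 rose. Stag3 fell at both ages, with log2 changes of -1.63 and -0.84, and had 396 and 488 CPM in KO at 25 dpp against 858 and 725 CPM in WT. Smc1b fell at 19 dpp, with a log2 change of -1.41, and was at -0.37 at 25 dpp (adjusted p = 0.282). Rec8, the meiotic kleisin, was not called at 19 dpp (0.26, adjusted p = 0.655) and fell at 25 dpp (-1.11).

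Of the 6 tested genes for axis-bound break formation 4 fell at 19 dpp, and at 25 dpp 3 rose and 1 fell. Spo11, whose product cuts the DNA, fell at both ages, with log2 changes of -3.08 and -1.38. Ankrd31 (-1.89) and Ccdc36 (Iho1, whose product binds HORMAD1; -1.28) fell at 19 dpp, and neither was called at 25 dpp (-0.45 and 0.21). Of 8 tested genes of recombination that promotes synapsis 7 fell at 19 dpp, and at 25 dpp 2 rose and 1 fell. Dmc1, the strand exchange protein gene, fell by 1.17 on the log2 scale at 19 dpp and rose by 1.69 at 25 dpp, or 0.12 with Sertoli markers as the scale. Hfm1 fell at 19 dpp (-2.36) and was at 0.01 at 25 dpp, and Tex11 was at -0.96 at 19 dpp (adjusted p = 0.0539) and rose by 1.46 at 25 dpp, or stood at -0.11 with Sertoli markers as the scale.

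All 3 tested genes of telomere attachment fell at 19 dpp and 2 fell at 25 dpp. Ccdc155 (Kash5) fell at both ages, with log2 changes of -2.97 and -1.13, as did Ccdc79 (Terb1), with -2.21 and -1.18. Sun1, which ties telomeres to the nuclear envelope, fell at 19 dpp (-0.79) and was at -0.25 at 25 dpp (adjusted p = 0.122). Of 5 genes that signal from unsynapsed axes 4 fell at 19 dpp, and at 25 dpp 1 rose and 1 fell. Atr, the kinase that acts there, fell at both ages, with log2 changes of -1.58 and -0.60. Mdc1 and Topbp1 fell at 19 dpp (-1.70 and -1.09) and were not called at 25 dpp (-0.24 and 0.32). At 25 dpp the falls named for Psma8, Stag3, Rec8, Spo11, Ccdc155, Ccdc79 and Atr kept their direction under each scaling, but with total counts only that of Spo11 was called (-0.91).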

How the data were processed

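Whole testis RNA of 8 libraries in 4 groups was made into stranded mRNA libraries, per the labels' protocols. The authors aligned reads with STAR 2.7.0a to mm10 and counted them with featureCounts 1.5.1, per the submitters' processing notes. The deposited values are raw counts per gene, 1 file per library. The gene annotation, the strand setting and the treatment of multi-mapped reads are not given in the sources used here. The files also held 1205 repeat families, which were kept out of library sizes and tests.

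After TMM scaling and filterByExpr, counts were fitted with robust quasi-likelihood in edgeR 4.0.16 (R 4.3.3), with 1 mean per group and 4 residual degrees of freedom. The 5 contrasts were KO against WT within an age, the later against the earlier age within a genotype, and the KO effect at 25 minus that at 19 dpp. P-values were adjusted by Benjamini-Hochberg over 23353 genes, with a threshold of 0.05. The SE is the absolute log2 change over the square root of F. Replicate pairs differed by more than counting noise in each group (chi-square per degree of freedom 16.1 to 81.6). Likeness to the members was Pearson's r of log2(CPM + 1) over 8 libraries, for genes with a mean of at least 10 CPM.

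Alternatives used DESeq2 1.42.0, limma-voom of limma 3.58.1, other scalings and filters, a replicate block and fits without each library. The scripts were tested on simulated data. All 9 members are named in every comparison, as are up to 3 genes of each pathway list by mean CPM and the 5 genes most like the members. The members and lists were chosen with earlier results of these data known. Of the pathway genes, Top6bl, Brme1, Shoc1, Spo16, Terb2 and Majin were not analysed here.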

Additional observations from a re-analysis of the deposited data

Results flagged for a closer look

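For 7 of the 9 genes the KO effect differed between 19 and 25 dpp in edgeR's test of the difference, with the effect at 25 dpp less negative or above 0. Over all genes tested 7.68% were called in that direction, and 0.3% with Sertoli markers as the scale. The members' median log2 difference was 2.19 under TMM, against -0.02 over all genes. With Sertoli scaling it was 1.53, against -0.71, since a change of scale shifts all genes by a similar amount. The count fell to 1 of 9 with Sertoli markers as the scale and was 2 to 8 when 1 library was left out. The log2 differences were 2.19 for Sycp1, 1.83 for Sycp2, 2.58 for Sycp3, 1.75 for Syce2, 2.36 for Tex12, 2.46 for Hormad1 and 2.94 for Hormad2. Syce2 and Sycp2 had the smallest of these, and the pair Syce1 and Syce3, both of the central element, did not pass.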

How the results depend on the processing

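The direction of all 9 genes held in each alternative run for KO against WT at 19 dpp and for KO between the ages, and Syce1 was called in each alternative for KO against WT at 25 dpp and for WT between the ages. Where a value below differs from that under TMM and edgeR, the cause was not tested unless fewer libraries or genes entered.

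At 19 dpp, 2054 genes were called higher and 3091 lower. Without 1 library in turn these were 0 to 2725 and 0 to 2907, and the members called lower 0 to 9; the 0 came without the first KO library, where edgeR's lowest adjusted p was 0.0800 and 5256 genes had an unadjusted p under 0.05. Genes called higher were 1285 with total counts, 68 with Sertoli scaling, 3380 with the DESeq2 Wald test and 1244 with that test without the first KO library. Genes called lower were 9464 with Sertoli scaling.

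At 25 dpp, 6096 genes were called higher and 8744 lower, and 4365 to 5960 and 6854 to 9313 without 1 library. Sertoli scaling gave 164 higher and 17101 lower, and the filter of 5 CPM 5469 lower. Members called higher were 0, with 0 to 1 without 1 library, 4 with total counts, 1 with limma-voom, 1 with the replicate block and 3 with only the groups compared. Members called lower were 1, with 1 to 2 without 1 library, 2 with DESeq2 size factors, 9 with Sertoli scaling, 2 with the 5 CPM filter, 3 with the DESeq2 Wald test, 2 with limma-voom, 3 with the replicate block and 2 with only the groups compared. Sycp1 and Hormad1 changed sign with DESeq2 size factors (-0.032 and -0.0030), the Wald test (-0.032 and -0.0030) and without the second KO library (-0.18 and -0.14; 0.32 and 0.34 without the first). Sertoli scaling turned Sycp1 (-1.49), Sycp3 (-1.13), Syce2 (-1.08), Tex12 (-1.06), Hormad1 (-1.46) and Hormad2 (-0.92). As background to the member counts, 26.1% of all genes were called higher and 37.4% lower under TMM and edgeR. An unadjusted p under 0.05 was found for 15829 genes and 3 members with limma-voom. The Wald test had 15530 genes and 3 members under it, and edgeR on only the groups compared 15198 genes and 6 members.

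In WT between the ages, 8151 genes were called higher and 5928 lower, and 6488 to 8708 and 3778 to 5653 without 1 library. The 5 CPM filter gave 5118 higher, total counts 9716 lower and Sertoli scaling 254 lower. Under TMM and edgeR 34.9% of all genes were called higher and 25.4% lower, the background to the member counts here. Members called higher were 1, with 1 to 3 without 1 library and 3 each with DESeq2 size factors, Sertoli scaling, the Wald test, limma-voom, the replicate block and only the groups compared; members called lower were 0, and 3 with total counts. Total counts turned Sycp1 (-0.24) and Hormad1 (-0.45), Sertoli scaling turned Sycp3 (0.75), Syce2 (0.71), Tex12 (0.66) and Hormad2 (0.56), and Hormad1 turned without the first WT library at 19 dpp (-0.057) or the second at 25 dpp (-0.15; 0.18 without the first).

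In KO between the ages, 2379 genes were called higher and 2072 lower, and 3 to 2666 and 14 to 2533 without 1 library, with 0 to 9 members called higher. Sertoli scaling gave 834 higher and 380 lower, the Wald test 4289 higher, only the groups compared 3309 lower, and the Wald test without the first KO library at 19 dpp 1120 lower. For the difference of the KO effects, 1793 genes were called higher and 2671 lower, and 234 to 2414 and 883 to 3210 without 1 library. Total counts gave 5548 higher, Sertoli scaling 79 higher, the Wald test 2963 higher and 4921 lower, and limma-voom 4281 lower. Members called higher were 7, 2 to 8 without 1 library and 1 with Sertoli scaling. Syce1 turned with total counts (0.074) and without the second KO library at 19 dpp (0.062; -0.84 without the first).

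Deviations of same-numbered libraries had correlations from -0.119 to 0.502 over 6 pairs of groups. The highest was between WT at 19 dpp and KO at 25 dpp, and the other pairs were at most 0.0848. With 2 libraries per group, these correlations cannot show whether the replicate numbers pair the samples. With the replicate block at 25 dpp, Sycp2 (-0.60, adjusted p = 0.0181), Syce3 (-1.06, adjusted p = 0.0315) and Tex12 (0.49, adjusted p = 0.0416) were called beside Syce1. The lowest level of any of the 9 genes in a library, 2.56 CPM for Syce3, stood above the 0.126 CPM that 3 counts are worth there.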
